A study of Homo sapiens with 16 samples.

Results

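The genes described here are 10 transcription factors that set the lineage of blood cells: GATA1, GATA2, KLF1, TAL1, LMO2, GFI1B, SPI1, CEBPA, CEBPE and RUNX1. They were taken by symbol from a table of 25221 genes, and all 10 were found. RUNX1 had 2 rows, of which the one for the RUNX1 gene (Entrez 861) was used, because the other belongs to a non-coding RNA with 0 counts in all 16 libraries. The cells were MOLM13, an acute myeloid leukemia line of FAB class M5a that carries an MLL-AF9 fusion, and K562, a BCR-ABL line from the blast crisis of chronic myeloid leukemia with erythroid features. Each line was cultured for 4 h with the solvent DMSO or with 20 μM Ro 08-2750 (Ro), a small molecule that binds the RNA-binding protein MSI2. There were 4 libraries per group, numbered as pairs 1 to 4 in each line. Both lines are single established lines, so a difference between them is a difference between 2 cell lines and not between lineages. Nothing in the labels says whether the 4 libraries of a group came from separate cultures, and p-values therefore measure the spread between these libraries only.

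Blood progenitors take a lineage through small sets of transcription factors that activate their own genes and oppose those of other lineages. GATA1, KLF1 and TAL1 direct red cell formation, and GATA1 acts in a complex in which LMO2 bridges it to TAL1. SPI1 (also called PU.1) and the C/EBP proteins direct granulocyte and monocyte formation, and GATA1 and SPI1 are known to oppose each other.

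Total counts per library ranged from 3143129 to 43571060, and the smallest were the K562 DMSO libraries of pairs 2 and 4. At these depths 3 counts, taken as the least that can be told from 0, correspond to 0.0670 to 0.872 CPM (counts relative to library size, here scaled by TMM over the 16 libraries). This limit and all intervals on counts cover counting error only. A single unnamed locus, LOC100507412, took 4.11 to 24.3% of the counts in MOLM13 and 0.269 to 6.44% in K562. The labels of the lines were checked against 10 markers each. The summed level of the erythroid markers (globin genes and others) was 1450 to 3370 CPM in K562 and 7.03 to 11.1 CPM in MOLM13, with the embryonic globin gene HBE1 at 0 in all 8 K562 libraries. HBG2 led the K562 sum (1670 CPM on average with DMSO). EPOR overlapped between the lines, at 1.45 to 7.04 CPM in K562 and 2.74 to 5.41 CPM in MOLM13 with DMSO. The summed level of the myeloid markers was 608 to 747 CPM in MOLM13 and 144 to 292 CPM in K562, where HOXA9 was at 0 in all 8 libraries. Of 9 tested with DMSO, 7 were higher in MOLM13, beside 21.1% of all genes. This count is a description only, because HOXA9 and MPO (0 to 7 counts in K562 with DMSO) entered the test through MOLM13 and had to differ. CD33 (14.8 and 12.3 CPM on average with DMSO) and LYZ (23.3 and 17.9) were close in MOLM13 and K562. CD14 was near 0 in both lines (0.173 and 0.119), and CSF1R led the K562 sum (132 CPM). A list of 10 lymphoid markers summed to 39.6 to 78.6 CPM in MOLM13 and 11.5 to 20.5 CPM in K562, led in MOLM13 by PAX5 (48.4 CPM on average with DMSO). In such bulk libraries, fewer expressing cells and less RNA per cell cannot be told apart.

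The erythroid factors were present in K562 and nearly absent from MOLM13. GATA1 (chrX:48786590-48794311, GRCh38.p14), the zinc finger factor that red cell genes depend on, was counted 48.1, 68.6, 70.5 and 76.7 CPM in the K562 DMSO libraries of pairs 1 to 4. In the K562 Ro libraries it was 36.6, 48.0, 57.5 and 75.4 CPM. In MOLM13 it had 0, 2, 2 and 0 counts with DMSO and 0, 2, 0 and 0 counts with Ro. All K562 libraries were far above all MOLM13 libraries, a separation seen in 39.4% of the genes tested in the DMSO libraries and 49.1% in the Ro libraries, and the DMSO and Ro ranges overlapped in both lines. Over the DMSO libraries, 4587 counts in K562 stood against 4 in MOLM13, a ratio of 1230 after scaling to library size (95% counting interval 480 to 4510). Over the Ro libraries it was 2000 (552 to 16500). The fitted log2 difference of MOLM13 to K562 with DMSO was -10.24, and -9.57 without the MOLM13 library of pair 4.

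KLF1 (chr19:12884422-12887201), an activator of adult globin and other red cell genes, was 111, 103, 125 and 219 CPM in the K562 DMSO libraries. With Ro it was 93.3, 83.0, 104 and 135 CPM, lower than its DMSO partner in every pair. MOLM13 had 0, 0, 1 and 2 counts with DMSO and 1, 3, 1 and 0 counts with Ro. The pair 4 DMSO library of K562, 1 of the 2 smallest, held by far the highest level. The K562 to MOLM13 ratio over the DMSO libraries rested on 9696 against 3 counts and was 3470 (1190 to 16800), beside 1480 (636 to 4570) over the Ro libraries. The fitted log2 difference was -11.72, and -12.33 without the MOLM13 DMSO library of pair 4.

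TAL1 (chr1:47216290-47232335), a basic helix-loop-helix factor needed for all blood lineages and later for red cells, varied little between the K562 libraries. It was 139, 128, 133 and 125 CPM with DMSO and 145, 136, 123 and 119 CPM with Ro in K562. MOLM13 had 0, 1, 1 and 4 counts with DMSO and 2, 0, 1 and 0 counts with Ro. The 8 K562 values lay close together with no separation by treatment. The ratio between lines over the DMSO libraries, 10708 against 6 counts, was 1910 (879 to 5210), beside 2890 (989 to 14000) over the Ro libraries. The fitted log2 difference was -10.76, and -11.45 without the MOLM13 DMSO library of pair 4.

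GATA2 (chr3:128479422-128493201), the GATA factor of stem and progenitor cells that GATA1 displaces during red cell maturation, was 82.0, 154, 116 and 77.9 CPM in K562 with DMSO. With Ro it was 56.3, 87.8, 105 and 94.6 CPM. In MOLM13 it was measurable at a low level, 0.867, 0.975, 1.19 and 1.49 CPM with DMSO and 0.698, 1.28, 0.641 and 2.55 CPM with Ro. Its level in K562 was thus above that in MOLM13 in every library, but unlike GATA1 it did not fall to single counts in MOLM13, where it had 6 to 52 counts per library. Over the DMSO libraries the ratio of K562 to MOLM13 was 77.8 (64.1 to 95.3).

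GFI1B (chr9:132945531-132993434), a zinc finger repressor of red cell and platelet precursors that recruits the demethylase KDM1A, was 23.6, 38.4, 44.2 and 30.1 CPM in K562 with DMSO. With Ro it was 13.9, 31.1, 33.9 and 26.3 CPM. MOLM13 held 2.17, 2.61, 1.49 and 1.52 CPM with DMSO and 2.36, 2.43, 2.34 and 2.15 CPM with Ro. The lines did not overlap, and in K562 each Ro library was below its DMSO partner.

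The promoters that held a GATA match are shown for these K562 factors, with those of GATA1 and CEBPA beside them. Promoter sequences of 300 bases, 250 before and 50 after a start site, were taken from RefSeq (GRCh38.p14) and were found for 8 of the 10 genes in 11 windows, with none for LMO2 and SPI1. The GATA motif was searched as AGATAA, with A or T accepted at its first and A or G at its last base, on both strands, and occurred in 8769 of 35116 windows of this length (25%). It was found in 4 of the 11 windows, those of KLF1, TAL1 and GFI1B. The KLF box was searched as CCNCNCCC on both strands, occurred in 56.2% of windows and was found in 8 of the 11. Not printed are the windows of GATA2, which held 3 and 7 KLF boxes and no GATA match, the second TAL1 window, which held neither motif, and those of CEBPE and RUNX1. In KLF1 (chr19:12887152-12887451, minus strand) GATA matches began at -66 and -13 from the start site. In TAL1 (chr1:47232286-47232585, minus strand) a match began at -35. In GFI1B the first window (chr9:132945281-132945580) held one at 4 and the second (chr9:132978444-132978743) one at -116. GATA1 itself (chrX:48786340-48786639) held no GATA match and 4 KLF boxes. CEBPA (chr19:33302485-33302784, minus strand), the leading factor of MOLM13, held no GATA match and 2 KLF boxes, which are left unmarked. Capitals mark the GATA matches in the first 4 and the KLF boxes in GATA1, of which the first 2 overlap. A match of letters is a description and not evidence of binding.
KLF1: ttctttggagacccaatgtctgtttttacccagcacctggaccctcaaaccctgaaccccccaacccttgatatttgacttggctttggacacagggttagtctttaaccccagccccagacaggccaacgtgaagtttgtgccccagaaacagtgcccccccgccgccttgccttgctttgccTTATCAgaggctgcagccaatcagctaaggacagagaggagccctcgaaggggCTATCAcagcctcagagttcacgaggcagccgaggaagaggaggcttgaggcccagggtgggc
TAL1: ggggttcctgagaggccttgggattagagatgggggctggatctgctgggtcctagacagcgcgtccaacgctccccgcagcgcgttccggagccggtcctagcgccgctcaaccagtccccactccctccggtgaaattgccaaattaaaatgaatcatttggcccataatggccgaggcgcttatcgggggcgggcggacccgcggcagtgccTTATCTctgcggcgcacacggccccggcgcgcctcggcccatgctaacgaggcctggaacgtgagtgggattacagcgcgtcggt
GFI1B, first window: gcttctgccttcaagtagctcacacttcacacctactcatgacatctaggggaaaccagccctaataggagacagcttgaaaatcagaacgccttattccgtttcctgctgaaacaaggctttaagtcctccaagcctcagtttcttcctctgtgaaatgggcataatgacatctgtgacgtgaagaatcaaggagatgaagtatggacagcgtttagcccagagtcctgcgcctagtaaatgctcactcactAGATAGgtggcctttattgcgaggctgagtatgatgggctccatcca
GFI1B, second window: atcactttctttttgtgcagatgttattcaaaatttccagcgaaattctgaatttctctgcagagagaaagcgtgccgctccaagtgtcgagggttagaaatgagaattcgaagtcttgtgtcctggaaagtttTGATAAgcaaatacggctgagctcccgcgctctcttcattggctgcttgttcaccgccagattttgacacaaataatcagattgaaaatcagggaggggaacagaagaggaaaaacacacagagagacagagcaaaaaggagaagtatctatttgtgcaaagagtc
GATA1: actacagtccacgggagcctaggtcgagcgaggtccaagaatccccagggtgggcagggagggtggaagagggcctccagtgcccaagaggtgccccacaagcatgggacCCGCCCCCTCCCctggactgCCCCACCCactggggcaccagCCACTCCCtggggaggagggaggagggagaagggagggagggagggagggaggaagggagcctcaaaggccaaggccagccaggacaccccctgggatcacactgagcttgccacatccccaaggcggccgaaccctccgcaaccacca
CEBPA: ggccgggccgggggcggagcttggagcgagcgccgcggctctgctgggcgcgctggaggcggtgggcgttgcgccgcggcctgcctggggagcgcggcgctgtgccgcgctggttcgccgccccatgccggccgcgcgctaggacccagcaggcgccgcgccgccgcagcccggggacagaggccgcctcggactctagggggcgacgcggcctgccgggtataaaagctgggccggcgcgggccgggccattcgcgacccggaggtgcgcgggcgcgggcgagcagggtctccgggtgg

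LMO2 (chr11:33858576-33892076), the adaptor that binds no DNA itself and joins TAL1 to GATA factors, was the exception among the complex members. It was 42.2, 46.0, 56.0 and 67.2 CPM in MOLM13 with DMSO and 34.8, 42.6, 46.3 and 45.6 CPM with Ro. In K562 it was 32.2, 63.6, 54.0 and 38.0 CPM with DMSO and 20.9, 43.7, 52.2 and 37.4 CPM with Ro. The values of the lines overlapped with either treatment, while its partners GATA1 and TAL1 were at single counts in MOLM13.

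The myeloid factors showed the opposite order. CEBPA (chr19:33299934-33302534), needed to form granulocyte and monocyte progenitors, was 377, 535, 630 and 702 CPM in MOLM13 with DMSO. With Ro it was 308, 466, 471 and 563 CPM, below its DMSO partner in every pair although the ranges overlapped. K562 had 15, 1, 6 and 0 counts with DMSO and 8, 7, 8 and 7 counts with Ro. The ratio of MOLM13 to K562 over the DMSO libraries, 51912 against 22 counts, was 2200 (1450 to 3510), beside 1350 (943 to 2000) over the Ro libraries.

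SPI1 (chr11:47354860-47378547), the ETS factor of myeloid and B cells, was expressed in both lines at a modest level. MOLM13 held 12.7, 18.5, 19.1 and 20.9 CPM with DMSO and 13.1, 16.4, 17.2 and 18.6 CPM with Ro. K562 held 4.63, 3.49, 5.41 and 10.9 CPM with DMSO and 6.14, 4.65, 5.76 and 6.00 CPM with Ro. The lines did not overlap, and the value closest to MOLM13 was the small K562 DMSO library of pair 4, which rested on 62 counts. CEBPE (chr14:23117306-23119255), which acts late in granulocyte maturation, had few counts in both lines. It had 0, 6, 11 and 18 counts with DMSO and 1, 12, 10 and 7 counts with Ro in MOLM13. In K562 it had 8, 0, 2 and 1 counts with DMSO and 0, 2, 2 and 3 counts with Ro.

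RUNX1 (chr21:34787801-35049302), a Runt factor required to form definitive blood stem cells, was high in MOLM13 and lower in K562. It was 226, 261, 190 and 104 CPM in MOLM13 with DMSO and 233, 245, 211 and 110 CPM with Ro. In K562 it was 28.6, 41.3, 35.6 and 31.5 CPM with DMSO and 19.6, 32.5, 34.8 and 37.9 CPM with Ro. Pair 4 was the lowest in MOLM13 with both treatments, and it still lay above every K562 library.

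**Figure D1:**
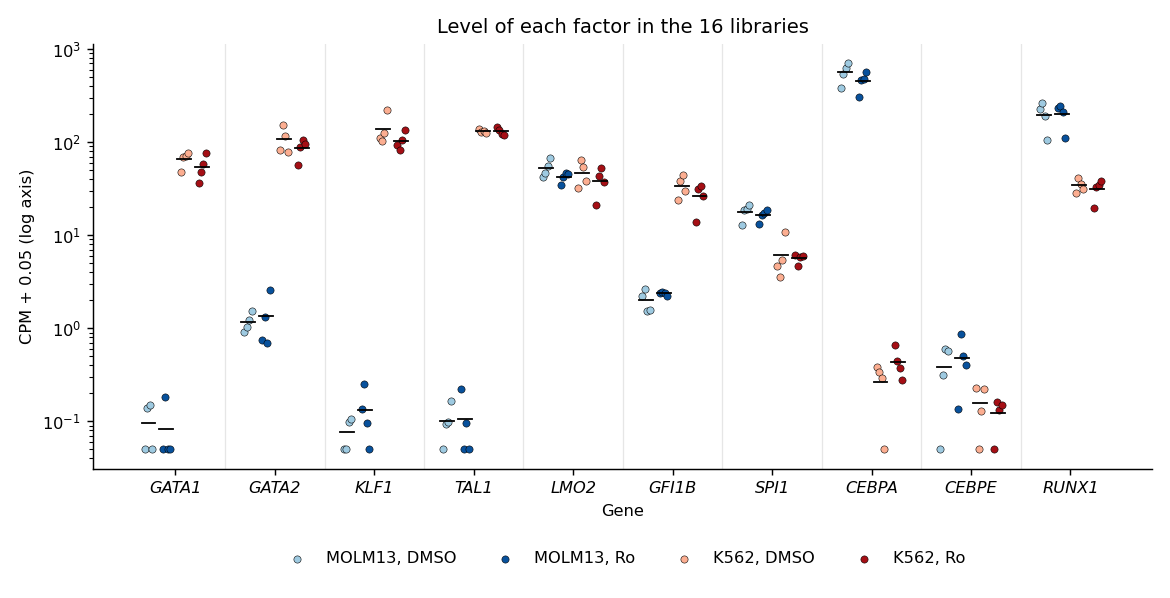
CPM of each factor (plus 0.05, log axis) in the 16 libraries, with 4 points per group and a bar at the group mean. GATA1, KLF1 and TAL1 lie near the bottom in MOLM13 and at 36.6 CPM or more in every K562 library, CEBPA lies near the bottom in K562 and at 308 CPM or more in every MOLM13 library, and LMO2 overlaps between the lines.

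The kit counts the 3′ end of a transcript, so counts were not divided by gene length when levels were ordered on the CPM scale. In MOLM13 with DMSO the order of mean levels was CEBPA at 561 ± 141 CPM, RUNX1 at 195 ± 67.7, LMO2 at 52.8 ± 11.2 and SPI1 at 17.8 ± 3.54 (SD, n = 4), with no overlap between neighbours. CEBPA alone made up 57.0 to 78.2% of the summed CPM of the 10 factors there. Below SPI1, GFI1B and GATA2 overlapped, GATA2 and CEBPE did not, and CEBPE, TAL1, GATA1 and KLF1 each overlapped with the next. In K562 with DMSO, KLF1 at 139 ± 53.8, TAL1 at 131 ± 6.40 and GATA2 at 108 ± 35.4 CPM overlapped with their neighbours, and GATA1 at 66.0 ± 12.4 CPM lay below all GATA2 values. LMO2 at 47.0 ± 14.4, RUNX1 at 34.2 ± 5.51 and GFI1B at 34.1 ± 9.05 CPM again overlapped with their neighbours, and SPI1 at 6.09 ± 3.27 CPM followed with no overlap. The 3 leading factors of K562 were close in level, whereas a single factor led in MOLM13.

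The levels of the lines were compared with edgeR's quasi-likelihood test in the DMSO libraries, with Benjamini-Hochberg adjustment over 15268 genes, of which 41.3% passed. Of the 9 factors tested, 8 passed. This count is a description only, because GATA1, GATA2, KLF1 and TAL1 entered the test through K562 and CEBPA through MOLM13 and had to differ. CEBPE did not reach the minimum of 10 counts in 4 libraries. Among the factors with 10 or more counts in every DMSO library of both lines, RUNX1 was higher in MOLM13 by 2.52 on the log2 scale (SE 0.285, edgeR adjusted p = 8.62e-06) and SPI1 by 1.57 (SE 0.320, edgeR adjusted p = 0.00135). GFI1B was lower in MOLM13, with a log2 difference of -4.14 (SE 0.303, edgeR adjusted p = 1.44e-07). The estimate of GATA2, with 6 to 52 counts per DMSO library in MOLM13, was -6.5 (SE 0.329). LMO2 did not pass, with a log2 difference of 0.19 (95% interval -0.36 to 0.73, edgeR adjusted p = 0.597), and its sign turned to -0.22 when libraries were scaled by total count. Under that scaling the median gene lay at -0.408 and 28.8% of calls were higher in MOLM13, against 50.9% with TMM. The Ro libraries, which are other libraries of the same cells, gave 2.68 for RUNX1, 1.54 for SPI1, -3.5 for GFI1B, -6.01 for GATA2 and 0.13 for LMO2, with 54.3% of 15346 genes called.

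**Figure D2:**
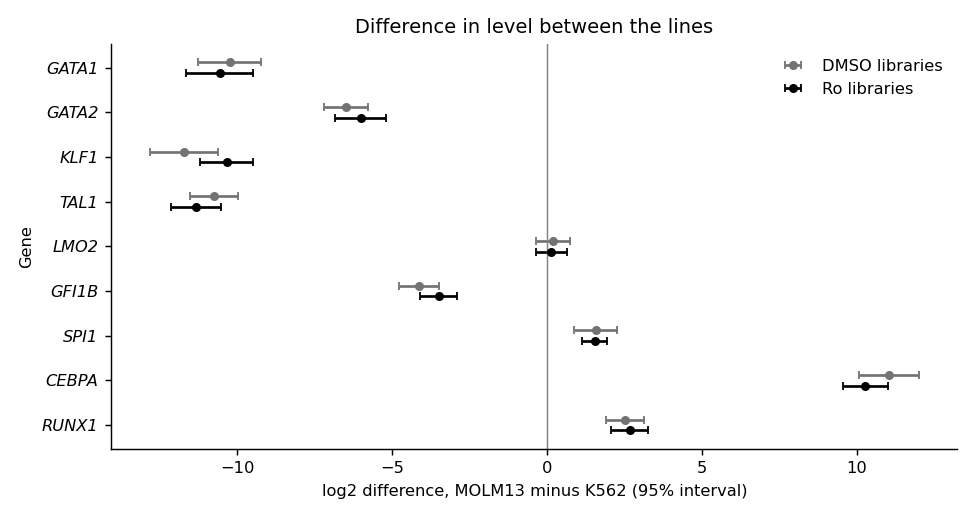
Log2 difference between MOLM13 and K562 for the 9 factors tested, as edgeR estimates with 95% intervals, in DMSO (grey) and Ro (black) libraries. CEBPA, RUNX1 and SPI1 lie to the right of 0, LMO2 spans 0, and the other 5 factors lie to the left, those of GATA1, KLF1, TAL1 and CEBPA resting on single or few counts in 1 line.

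The second question was what 4 h of Ro did to these factors. In MOLM13 no factor of the 7 tested passed edgeR's test without the pair number, and neither did any of 15031 genes (0%, with 175 genes or 1.16% at an unadjusted p under 0.05 and 1 gene called by DESeq2). This test has little power: in data simulated from these MOLM13 libraries it found 34 of 198 changes of 1 on the log2 scale. With the pair number edgeR found 184 of them, with 14 false calls against 0 without it. The simulation built in a level shared within each pair, so it had to favour the fit with the pair number. It cannot show which fit suits the real libraries. Same-numbered libraries deviated together, and with the pair number as a term 317 genes (2.11%) passed, 1.17% of genes being lower. CEBPA was then the 1 factor that passed. Its level fell by 0.29 on the log2 scale, a 1.22-fold decrease (SE 0.0660, edgeR with the pair number, adjusted p = 0.0226), while the same test without the pair number gave -0.3 (95% interval -0.77 to 0.18, edgeR adjusted p = 0.9998). The change was -0.28, -0.19, -0.39 and -0.31 in pairs 1 to 4. CEBPA was thus lower in 4 of 4 pairs, as 13.3% of all genes tested were. DESeq2 with the pair number gave -0.31 (DESeq2 adjusted p = 0.00271) and called 1.77% of genes. The call was present in pairs 3 and 4 alone (-0.35, edgeR adjusted p = 0.0427, 0.670% of genes called) and absent in pairs 1 and 2 alone (-0.23, edgeR adjusted p = 0.424, 0.216% of genes called). With so few libraries, the p-values of both fits rest mostly on spread shared between genes.

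LMO2 was the other factor with a lower value in every MOLM13 pair, by -0.27, -0.1, -0.24 and -0.55 in pairs 1 to 4. Its estimate was -0.3 (95% interval -0.47 to -0.13, edgeR with the pair number, adjusted p = 0.0602) and did not pass. RUNX1 and SPI1 were estimated more closely than the low factors and lay near 0. RUNX1 gave 0.06 (-0.08 to 0.21, edgeR adjusted p = 0.699) and SPI1 -0.11 (-0.31 to 0.08, edgeR adjusted p = 0.574) in the same fit. For GFI1B, at 15 to 59 counts per library, the estimate was 0.32 (-0.12 to 0.76, edgeR adjusted p = 0.454). GATA2 and CEBPE had intervals of -0.4 to 0.81 and -0.68 to 1.17.

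In K562, edgeR gave no call with Ro over all 4 pairs. None of 8 factors and none of 15227 genes passed edgeR's test (0%, with 187 genes or 1.23% at an unadjusted p under 0.05, and 0 genes called by DESeq2 without the pair number), and adding the pair number also gave 0 genes. In data simulated from these K562 libraries, edgeR found 0 of 193 changes of 1 on the log2 scale without the pair number. With the pair number, which the simulation built in as a level shared within each pair, it found 84, with 5 false calls. The lack of calls therefore cannot show that Ro left these genes unchanged. No estimate of a factor was above 0, and their median was -0.3 in the fit with the pair number, beside 0.02 over all genes, 53.5% of which lay above 0. The 8 factors share the same libraries, so this is a description of these libraries. TAL1 (0) and SPI1 (-0.01) lay at or near 0 in that fit, and SPI1 was higher with Ro in 3 of 4 pairs. GATA1, KLF1, GFI1B and LMO2 were lower with Ro in all 4 pairs, as 4.54% of genes tested were.

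By pair, the change of GATA1 was -0.38, -0.5, -0.31 and -0.02. That of KLF1 was -0.23, -0.29, -0.29 and -0.69, and that of GFI1B was -0.75, -0.29, -0.39 and -0.19. LMO2 changed by -0.6, -0.53, -0.06 and -0.02, so in pairs 3 and 4 it was nearly unchanged. The largest change of KLF1 was in pair 4, whose DMSO library was small and held the highest KLF1 level. With the pair number, edgeR gave -0.38 for KLF1 (95% interval -0.7 to -0.05), -0.41 for GFI1B (-0.74 to -0.07), -0.3 for GATA1 (-0.61 to 0.01) and -0.3 for LMO2 (-0.65 to 0.05), each with an adjusted p of 0.947. TAL1 differed from these in that its estimate was 0 (-0.31 to 0.3), with changes of 0.07, 0.11, -0.13 and -0.07 by pair. GATA2 (-0.3, interval -0.73 to 0.13), RUNX1 (-0.16, -0.53 to 0.22) and SPI1 (-0.01, -0.61 to 0.59) varied in sign between pairs.

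The K562 result differed with the pairs used. In pairs 1 and 3, whose libraries held 13950949 to 43571060 counts, edgeR with the pair number called 3.06% of 13667 genes, 1.63% being lower, and 3 factors passed. GATA1 fell by 0.36 (SE 0.0978, edgeR adjusted p = 0.0174), GATA2 by 0.35 (SE 0.0949, edgeR adjusted p = 0.0144) and GFI1B by 0.56 (SE 0.112, edgeR adjusted p = 0.000156) on the log2 scale. With so few libraries, these p-values rest mostly on spread shared between genes and little on that of the gene itself. The pairs differed in size: GATA2 changed by -0.53 in pair 1 and -0.16 in pair 3, and GFI1B by -0.75 and -0.39. LMO2 gave -0.32 (edgeR adjusted p = 0.0612), KLF1 -0.28 (edgeR adjusted p = 0.0814) and RUNX1 -0.28 (edgeR adjusted p = 0.157), and none of these passed. TAL1 gave -0.04 and SPI1 0.23, each with an interval that spanned 0. In pairs 2 and 4, an alternative added after the data were seen, 0 of 10967 genes passed. The estimates there were -0.29 for GATA1, -0.29 for GATA2, -0.27 for GFI1B and -0.53 for KLF1, each with an interval that spanned 0.

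**Figure D3:**
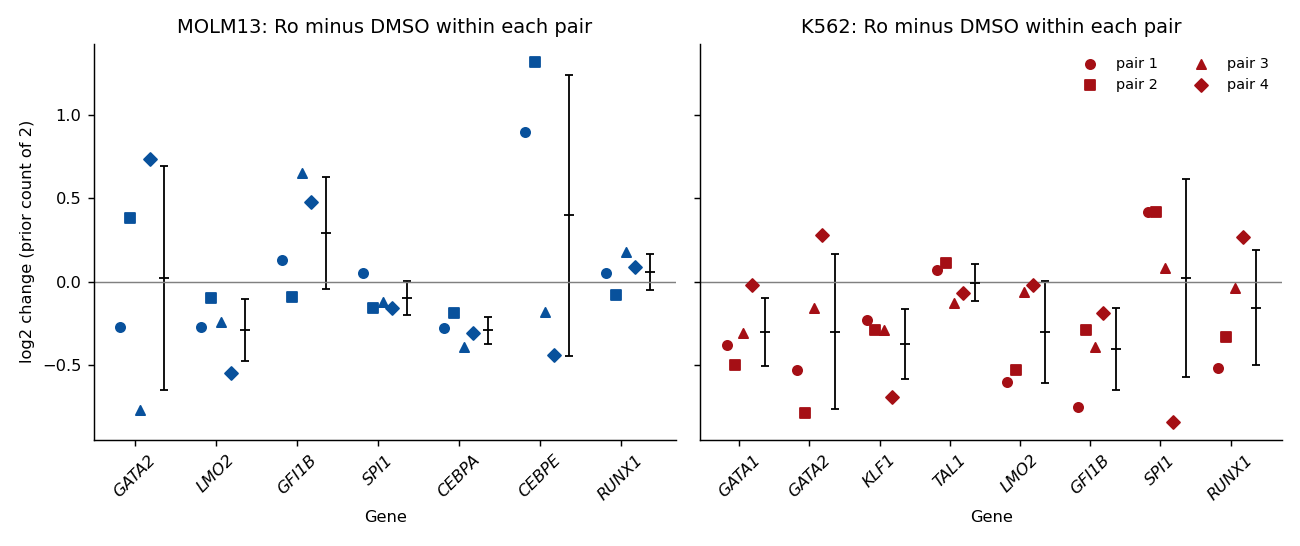
Log2 change with Ro in each pair (markers) for the factors tested in MOLM13 (left) and K562 (right), with the mean and SD of the 4 pairs beside them. CEBPA in MOLM13 lies between -0.39 and -0.19 in all pairs, and GATA1, KLF1, LMO2 and GFI1B lie below 0 in all 4 pairs of K562.

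**Figure D4:**
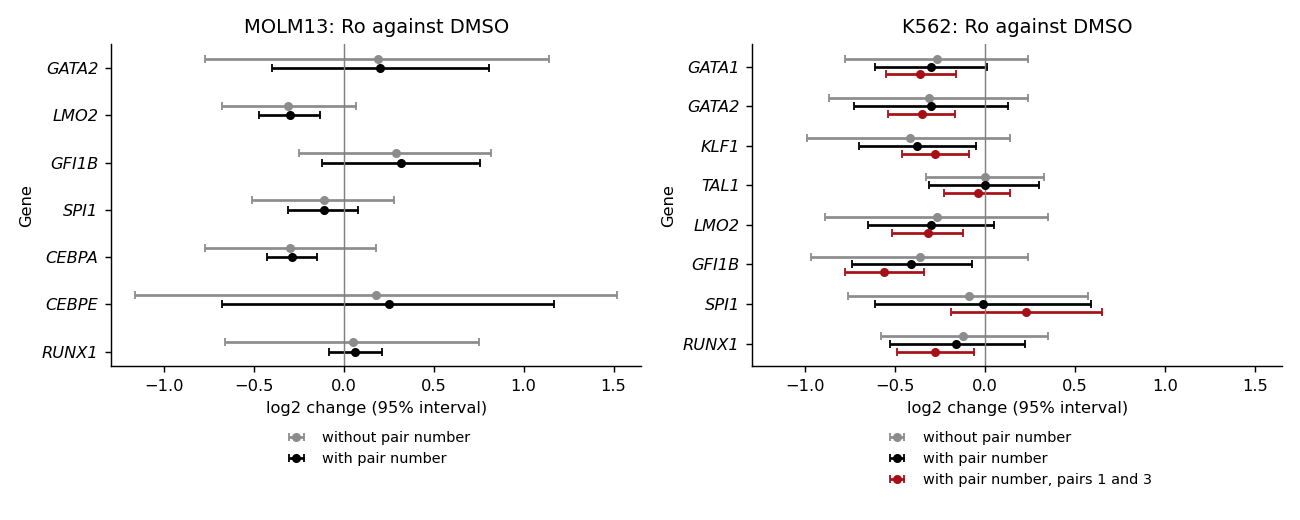
Log2 change with Ro and its 95% interval from edgeR without the pair number (grey), with it (black) and, for K562, with it in pairs 1 and 3 only (red). CEBPA in MOLM13 has the narrowest interval below 0 among the black points (-0.43 to -0.15). The red intervals of all K562 factors shown lie below 0 except those of TAL1 and SPI1, but only GATA1, GATA2 and GFI1B passed after adjustment. The red intervals come from few libraries and rest mostly on spread shared between genes.

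Whether Ro acted differently in the lines was tested as an interaction over all 16 libraries. None of the 10 factors and 0 of 16224 genes passed with edgeR (218 genes or 1.34% at an unadjusted p under 0.05, and 0 by DESeq2 without the pair number), and the pair number left the edgeR count at 0. In data simulated from these libraries, edgeR found 0 of 197 differences of 1 on the log2 scale without the pair number. With the pair number, which the simulation built in as a level shared within each pair, it found 60. The test therefore cannot show that Ro acted alike in the lines. The comparison shares its libraries with the ones above. The estimate farthest from 0 among the factors with 10 or more counts in every library was that of GFI1B, 0.72 (0.22 to 1.22, edgeR with the pair number, adjusted p = 0.766), from opposite point estimates in the lines. Its MOLM13 side rested on 15 to 59 counts per library and varied in sign between pairs. For CEBPA the estimate was -1.07 (-1.85 to -0.3, edgeR adjusted p = 0.766), but the K562 side rested on 0 to 15 counts per library. For LMO2, lower with Ro in every pair of both lines but by -0.06 and -0.02 only in pairs 3 and 4 of K562, the difference was 0 (-0.39 to 0.39).

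Ratios of opposing or successive factors within a library need no scaling between libraries. The GATA1 to GATA2 count ratio, which rises as red cell precursors mature, was 0.445 to 0.984 in K562 with DMSO and 0.546 to 0.797 with Ro (higher with Ro in 2 of 4 pairs, exact permutation test within pairs, two-sided p = 1). The CEBPA to SPI1 ratio in MOLM13 was 28.9 to 33.6 with DMSO and 23.6 to 30.2 with Ro, lower in 4 of 4 pairs by a mean of -0.19 ± 0.13 on the log2 scale (SD), and the exact permutation test gave p = 0.125, the smallest that 4 pairs allow. The GATA1 to SPI1 ratio in K562 was 7.06 to 19.7 with DMSO and 5.96 to 12.6 with Ro (exact permutation p = 0.5). KLF1 to GATA1 gave an exact permutation p of 1 and TAL1 to LMO2 one of 0.5 in K562. With 4 pairs none of the 5 ratios could reach a p under 0.05.

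**Figure D5:**
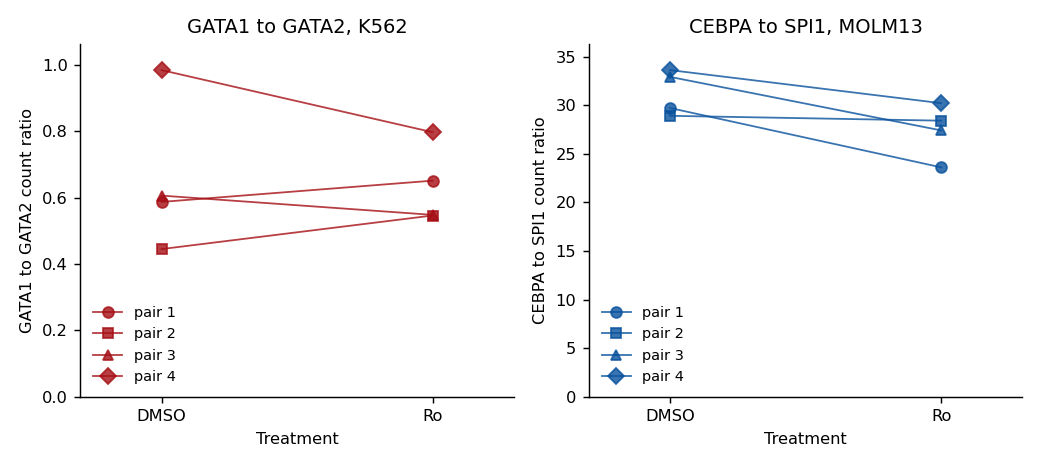
Count ratios of GATA1 to GATA2 in K562 (left) and of CEBPA to SPI1 in MOLM13 (right), with a line per pair from DMSO to Ro. The lines cross in K562, and all 4 slope down in MOLM13, from 28.9 to 33.6 with DMSO to 23.6 to 30.2 with Ro.

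Partner and related factors were listed by hand (30 genes, all measured), with earlier results of these data known. Counts of calls within such a list are therefore a description and not a test against the share of all genes. With the pair number, 5 of them were lower with Ro in MOLM13 and 0 were higher, beside 1.17% and 0.938% of all genes. These were GFI1 (-0.62, edgeR adjusted p = 0.000607), the repressor that is GFI1B's paralog, IRF8 (-0.61, edgeR adjusted p = 0.000396), which directs monocyte formation with SPI1, MYB (-0.51, edgeR adjusted p = 0.000824), a factor of progenitor growth, ETV6 (-0.32, edgeR adjusted p = 0.0275) and IKZF1 (-0.28, edgeR adjusted p = 0.0443). In K562 no partner passed, and MYB gave -0.57 (interval -0.92 to -0.23, edgeR adjusted p = 0.947) with lower values in 4 of 4 pairs. Without the pair number 0 partners passed in MOLM13. Between the lines, 13 partners were higher in MOLM13 and 7 were lower, beside 21.1% and 20.3% of all genes. Among the higher were BCL11A (log2 difference 6.09), FLI1 (6.79) and IRF8 (7.07), which entered the test through MOLM13 and share the limit given for GATA1. Among the lower were the GATA1 cofactor ZFPM1 (-2.54, edgeR adjusted p = 4.48e-05), NFE2 (-2.06, edgeR adjusted p = 0.000179) and KLF3 (-1.65, edgeR adjusted p = 5.97e-05).

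Genes that these factors are known to activate were listed likewise, with the same limit on their counts. Of 25 erythroid targets, 23 were tested between the DMSO libraries of the lines, where 20.3% of all genes were lower and 21.1% higher in MOLM13. Of these, 21 were lower and 1, the heme enzyme gene UROS, was higher (log2 difference 1.1, edgeR adjusted p = 0.000958). Among the lowest were HBA1 (-13.57) and HBG2 (-9.02). Of 18 myeloid targets tested, 16 were higher in MOLM13, led by the granule protease genes CTSG (13.79) and ELANE (12.58). As many of these genes are nearly absent from 1 line, these counts share the limit given for GATA1. With Ro in MOLM13, 3 of the 18 myeloid targets fell in the fit with the pair number, beside 1.17% of all genes: ELANE by 0.44 (edgeR adjusted p = 0.000648), PRTN3 by 0.41 (edgeR adjusted p = 0.00311) and NCF4 by 0.35 (edgeR adjusted p = 0.0324) on the log2 scale. Without the pair number 0 of the 18 passed. The 16 erythroid targets tested in MOLM13 gave 0 calls, with 3 lower at an unadjusted p under 0.05, as 9.65% of all genes were. In K562, edgeR called 0 of 24 erythroid and 0 of 10 myeloid targets with Ro (2 and 0 at an unadjusted p under 0.05 with the pair number, beside 2.11% of all genes), and the median of the erythroid targets was -0.04 beside -0.3 for the factors.

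The genes whose profile over the 16 libraries was most like that of GATA1, by root-mean-square difference of centred log2 CPM among 16223 genes, were LINC00958 (0.5), DDR1 (0.51) and MAGEA6 (0.52). GATA1 had 0 to 2 counts in every MOLM13 library, so its profile was mostly the difference between the lines. Likeness to it therefore describes a similar line difference and does not show a shared response to Ro. Among those most like SPI1 were AKR1D1 (0.18) and USP13 (0.2).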

How the data were processed

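The authors deposited read counts per gene as whole numbers, not normalized, from libraries of a 3′-end mRNA kit with spike-in RNAs (no spike-in rows are in the table), sequenced on a HiSeq 2000. The submitters' processing notes name Trim Galore, STAR 2.5.3a, SAMtools 1.5 and hg38. The counting program and annotation are not given in the sources used here, so reads shared with overlapping genes are uncertain.

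Groups and pair numbers come from the sample titles. The members and gene lists were chosen with earlier results of these data known. All 10 members are described. Genes of the other lists were named where they passed the adjusted threshold, at most the 5 with the smallest p per list and direction, and MYB in any case. Values of 2 genes that this rule or the search for like profiles would name are not reported here.

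Tests used the quasi-likelihood F test of edgeR 4.0.16 (R 4.3.3) after TMM scaling, with Benjamini-Hochberg adjustment over all genes tested and a threshold of 0.05. A gene was tested if 4 or more libraries of the comparison held 10 or more counts. For the change within a pair, a prior count of 2 was used. The study's methods name no pairing. After subtraction of group means, the libraries that share a number correlated by 0.385 to 0.831 in MOLM13 and 0.109 to 0.416 in K562 across genes, so a fit with the pair number is given where it changes a call. What a pair shares is not named. No 2 libraries of a group agreed within sampling noise (chi-square per degree of freedom of at least 10.0). Alternatives were DESeq2 1.42.0, limma-voom (limma 3.58.1), other scalings and filters, and left-out libraries and pairs. The code was tested on simulated data.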

Additional observations from a re-analysis of the deposited data

How the results depend on the processing

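The number of factors past the threshold stayed within 1.5 times its value under most alternatives. It was 8 between the lines in the DMSO libraries under every alternative, including each left-out library (8 to 8, where the filter asked for 3 libraries). With Ro in MOLM13 it was 0 under the main test and 1 with the replicate block of pair numbers in edgeR, 1 in DESeq2 with the block and 1 in pairs 3 and 4 only, each time CEBPA. Leaving out 1 library or pair gave 0 to 1. With the block, CEBPA passed without pair 2 or pair 4 and not without pair 1 or pair 3, at estimates of -0.33 to -0.26. With Ro in K562 the count was 0 in the main test, with the block, without any 1 library or pair and in pairs 2 and 4 only, and 3 in pairs 1 and 3 only. For the difference in Ro effect the count was 0 in all fits, the block included. Over all genes, the MOLM13 count was 0 in the main test, 1 in DESeq2, 317 with the block in edgeR (49 to 358 without 1 pair), 266 with the block in DESeq2, 28 in pairs 1 and 2 and 96 in pairs 3 and 4, the K562 count 0, 2 in DESeq2 with the block and 418 in pairs 1 and 3, and that of the difference in Ro effect 0 and 3 in DESeq2 with the block.

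Some estimates changed sign. With limma-voom GATA2 in MOLM13 was -0.02, and in K562 TAL1 was 0.01 and SPI1 0.06. TAL1 in K562 was 0.02 with no filter, and SPI1 in K562 was 0.23 in pairs 1 and 3 only. In pairs 1 and 2 of MOLM13 GFI1B was -0.01 and RUNX1 was -0.01. LMO2 between the lines was -0.22 with total count scaling. Without 1 library, the log2 change with Ro in MOLM13 was -0.41 to 0.43 for GATA2 (-0.22 to 0.53 without 1 pair, with the block), -0.01 to 0.43 for CEBPE and -0.17 to 0.25 for RUNX1. In K562 it was -0.08 to 0.03 for TAL1 (-0.05 to 0.03 with the block), -0.27 to 0.27 for SPI1 (-0.18 to 0.28 with the block) and -0.23 to 0.03 for RUNX1. The difference in Ro effect was -2.85 to 0.2 for GATA1, -0.13 to 0.74 for GATA2, -1.67 to 0.14 for TAL1, -0.26 to 0.12 for LMO2, -0.4 to 0.11 for SPI1 and -0.06 to 0.36 for RUNX1. The causes of these changes were not tested. Depth limits most the K562 DMSO libraries of pairs 2 and 4, and GATA1, KLF1, TAL1 and CEBPE in MOLM13 and CEBPA and CEBPE in K562 rest on 0 to 18 counts per library.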
